A study of Mus musculus with 40 samples.

Results

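The genes of cell division and DNA replication encode the proteins that copy the chromosomes in S phase and separate them in mitosis. Of 38 listed gene symbols of this kind, 37 had a probe set among the 16475 for genes, and *Stmn1*, which encodes a regulator of microtubules, was not analysed here. The genes were chosen by symbol, with no threshold on the signal. By role they comprised 9 genes of replication licensing, 3 of nucleotide synthesis, 4 genes of cyclins and *Cdk1*, 9 of mitotic kinases and the checkpoint, 7 of the spindle and kinetochore, 2 of cytokinesis, 2 of chromosome structure and proliferation, and *Cdca3*, which acts at the entry into mitosis.

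Expression was measured with Affymetrix arrays in the gastrocnemius, a muscle of the calf, and in the quadriceps of the thigh, to ask how these muscles differ and whether a high fat diet changes the difference. There were 4 groups of 10 arrays, the gastrocnemius and the quadriceps of 10 mice on a low fat diet (LFD) and of 10 mice on a high fat diet (HFD), so that each mouse gave 1 array per muscle. All mice were males of 1 inbred strain, C57BL/6J in the study's methods and C56BL/6J in the sample labels, with no altered allele named. At 9 weeks of age every mouse, of either diet, had been placed on the LFD as a run-in for 3 weeks, after which 10 mice remained on it and 10 received the HFD for 8 weeks, up to an age of 20 weeks. Whole muscles were extracted, so that in each array fewer cells of a type and less RNA per cell cannot be told apart.

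Before S phase a cell loads the MCM helicase onto its origins of replication, and ribonucleotide reductase and thymidylate synthase supply the building blocks of DNA. Cyclins bound to *Cdk1* then drive mitosis, in which the Aurora and Polo-like kinases, motor proteins and the spindle checkpoint direct the chromosomes. The nuclei of mature muscle fibers have left the cell cycle, and satellite cells are the known dividing stem cells of muscle.

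The signal intensities, deposited on a linear scale, had array medians between 8.8 and 9.4. The mean signal intensity over all 40 arrays was under the lowest of these medians for 27 of the 37 genes and over 20 for 5, *Mcm4*, *Mcm7*, *Rrm1*, *Ccne2* and *Aurka*. At such low signals the removal of background can shift a fold change. The labelled tissue carried its defining markers in every array, as the summed signal of 9 fiber genes, of which *Acta1*, *Tnnt3* and *Ckm* were the brightest, lay between 149746 and 167719. Differences are given on the log2 scale as gastrocnemius minus quadriceps, from limma fits over all 16475 probe sets within each diet, and a gene was called when its fold change exceeded 1.3 and its Benjamini-Hochberg adjusted p was below 0.05.

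Few of these genes were called between the muscles, and those that were called were lower in the gastrocnemius. In LFD mice 1 of 37, *Tpx2*, was called lower and 0 were called higher, where 0.601% of all probe sets were called lower and 0.777% higher. In HFD mice 5 of 37 were called lower, namely *Aurka*, *Ccnb2*, *Tpx2*, *Ect2* and *Cdk1*, and 0 were called higher, where 0.868% of all probe sets were called lower and 1.0% higher. On the adjusted p alone, *Prc1* joined in LFD mice (2 of 37, beside 1.04% of all probe sets lower) and *Kif11* in HFD mice (6 of 37, beside 1.48%), but with the mouse as a fixed block their adjusted p were 0.0799 and 0.0702. At an unadjusted p under 0.05, 13 genes were lower in LFD mice and 20 in HFD mice, and 0 were higher with either diet, beside 6.26% and 7.0% of all probe sets lower. The difference was negative for 31 of 37 genes in LFD mice and for 36 of 37 in HFD mice, against 46.5% and 50.5% of all probe sets. Its median over the genes was -0.16 in LFD mice and -0.25 in HFD mice, and over all probe sets 0.01 and -0.0012. The muscles of a mouse are paired, and with the mouse as a fixed block the count became 2 in LFD mice, through *Aurka* with an adjusted p of 0.0241, and stayed at 5 in HFD mice. With this block 0.832% and 0.917% of all probe sets were called lower.

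**Figure D1:**
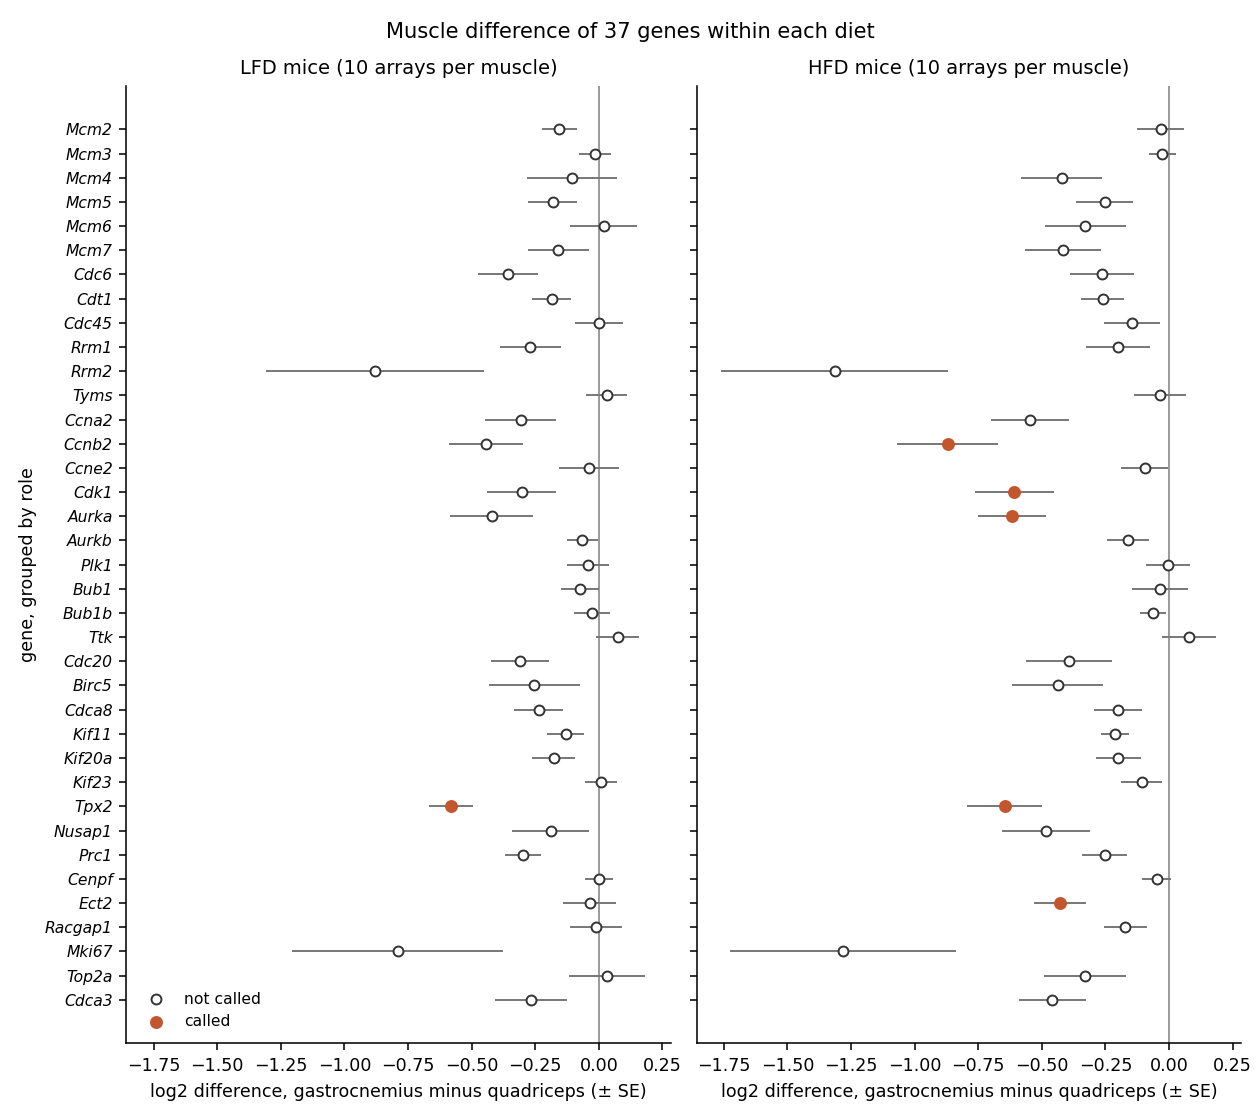
Log2 difference between the muscles (x axis, gastrocnemius minus quadriceps) of each of 37 genes (y axis, grouped by role), in LFD mice on the left and HFD mice on the right, as limma's estimate with bars of ± 1 standard error and filled points for called genes. Points lie left of 0 for 31 genes in LFD mice and 36 in HFD mice, and *Rrm2* and *Mki67* lie farthest left with the widest bars.

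*Tpx2*, whose product activates Aurora A and assembles spindle microtubules, was the only one of the 37 genes called with both diets. Its signal intensities in LFD mice were 7.9 at the lowest, 10.45 at the median and 12.1 at the highest in the gastrocnemius, and 11.9, 14.85 and 18.4 in the quadriceps. In HFD mice they were 7.6, 9.75 and 12.6 against 8.3, 14.75 and 24.7. The groups overlapped in LFD mice by the quadriceps of mouse 141 alone, which lay under the gastrocnemius of mouse 153. In HFD mice the quadriceps of mouse 149, at 8.3, lay over the gastrocnemius of mice 149 and 157 alone, at 7.6 and 7.8. The quadriceps of mouse 150, at 11.8, lay under the gastrocnemius of mouse 158 at 12.6. *Tpx2* was lower in the gastrocnemius of 10 of 10 LFD mice and 10 of 10 HFD mice, with log2 differences of -0.58 (standard error 0.085, limma's adjusted p 0.000317) and -0.65 (standard error 0.15, adjusted p 0.0139). The fold was 1.50 and 1.56 in favour of the quadriceps.

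*Aurka* encodes Aurora A, the kinase of the spindle poles. In HFD mice its signal intensities were 38.3, 52.45 and 71.4 (lowest, median and highest) in the gastrocnemius and 55.5, 76.5 and 131.7 in the quadriceps, and in LFD mice 41.9, 59.1 and 101.4 against 59.7, 82.4 and 123.5. Groups overlapped with both diets, but *Aurka* was lower in the gastrocnemius of 10 of 10 HFD mice and of 9 of 10 LFD mice. The log2 difference was -0.62 in HFD mice (standard error 0.13, limma's adjusted p 0.00854) and -0.42 in LFD mice (standard error 0.16, adjusted p 0.221). Its highest quadriceps arrays were those of mouse 151 in HFD mice and of mice 155 and 156, at 123.5 and 122.9, in LFD mice.

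Among the cyclins and their kinase, *Ccnb2* and *Cdk1* were called lower in the gastrocnemius with the HFD, and 0 of the 4 genes were called in LFD mice. *Ccnb2* encodes cyclin B2, a partner of *Cdk1* in mitosis, and its signal intensities in HFD mice were 2.1, 2.7 and 3.0 (lowest, median and highest) in the gastrocnemius and 2.7, 4.9 and 11.0 in the quadriceps. Quadriceps arrays of mice 145, 146, 149, 150, 152 and 157 lay between 4.8 and 11.0, and the other 4 lay between 2.7 and 3.3, next to the highest gastrocnemius array of 3.0. The log2 difference was -0.87 (standard error 0.20, limma's adjusted p 0.0131), and in LFD mice, with 2.4, 2.75 and 3.2 against 2.5, 3.4 and 6.5, it was -0.44 (standard error 0.15, adjusted p 0.128).

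*Cdk1*, the kinase that starts mitosis, had signal intensities in HFD mice of 3.6, 4.55 and 5.3 in the gastrocnemius and 4.4, 7.25 and 12.0 in the quadriceps. The log2 difference was -0.61 (standard error 0.16, limma's adjusted p 0.0333), and *Cdk1* was lower in the gastrocnemius of 8 of 10 HFD mice. The call was lost when mouse 145, 146, 149, 150, 152 or 157 was left out, with adjusted p between 0.0674 and 0.101. In LFD mice the values were 4.0, 4.7 and 5.2 against 4.2, 5.1 and 11.0, with a log2 difference of -0.30 (adjusted p 0.306), and the quadriceps of mice 155 and 148 were highest at 11.0 and 8.0. *Ccna2*, the cyclin of S phase and early mitosis, reached 9.9 in the quadriceps of HFD mice against 4.2 at most in the gastrocnemius, with a log2 difference of -0.55 (adjusted p 0.056), and without mouse 143 or mouse 144 it was called (adjusted p 0.0333 and 0.0258). *Ccne2*, a cyclin of the start of S phase, had medians of 67.6 and 71.45 in LFD mice and 71.2 and 74.0 in HFD mice, with log2 differences of -0.04 and -0.10.

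Promoters of cell cycle genes are known to carry CCAAT boxes, cell cycle homology regions and E2F sites, and 3 promoters are shown here, those of *Ccnb2*, *Cdk1* and *Aurka*. These are the genes called in HFD mice among the 6 with a window whose larger p of both diets was smallest, a rule that leaves out *Ect2*. Shown are the 250 bases before the start site, from RefSeq on build GRCm38.p6, 5′ to 3′ on the strand of the gene, with capitals for a CCAAT box (CCAAT), a cell cycle homology region (TTTGAA) or an E2F site (TTTCCCGC, TTTGGCGC, TTTCGCGC or TTTGCCGC), searched on both strands. None of these words contains another.
Ccnb2, chr9:70421555-70421804, minus strand: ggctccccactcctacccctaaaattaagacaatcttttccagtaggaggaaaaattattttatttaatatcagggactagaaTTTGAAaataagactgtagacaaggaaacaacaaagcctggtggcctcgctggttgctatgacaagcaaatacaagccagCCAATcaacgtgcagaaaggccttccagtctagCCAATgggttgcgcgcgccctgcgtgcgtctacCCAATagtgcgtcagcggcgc
Cdk1, chr10:69352913-69353162, minus strand: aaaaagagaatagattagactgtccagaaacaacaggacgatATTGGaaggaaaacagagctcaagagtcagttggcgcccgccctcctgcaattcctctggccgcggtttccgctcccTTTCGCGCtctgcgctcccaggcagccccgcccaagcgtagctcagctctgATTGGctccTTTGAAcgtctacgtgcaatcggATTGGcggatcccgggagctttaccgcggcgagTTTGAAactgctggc
Aurka, chr2:172370571-172370820, minus strand: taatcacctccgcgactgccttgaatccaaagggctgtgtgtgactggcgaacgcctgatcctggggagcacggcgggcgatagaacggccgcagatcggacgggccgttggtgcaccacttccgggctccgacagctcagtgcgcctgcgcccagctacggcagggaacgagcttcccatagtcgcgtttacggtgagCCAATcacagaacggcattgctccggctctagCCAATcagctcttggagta
*Ccnb2* held 3 CCAAT boxes and 1 homology region, *Cdk1* 3 and 2 with 1 E2F site, and *Aurka* 2 CCAAT boxes alone. Of the other genes with the smallest p, *Cdc20* held 2 CCAAT boxes and 1 homology region, *Prc1* 1 CCAAT box and *Cdt1* no match. A window was given for 31 of the 37 genes, all but *Mcm4*, *Ccna2*, *Ccne2*, *Aurkb*, *Kif20a* and *Tpx2*, and the first window listed for each gene was searched. A CCAAT box was present in 26 of 31 (83.9%), against 35.9% of 12585 genes of the array and 34.5% of 27025 genes of the table. The homology region was present in 9 (29.0%), against 11.6% and 16.3%, and an E2F site in 5 (16.1%), against 2.84% and 1.91%. All 9 windows with the homology region also held a CCAAT box, a combination of 4.19% of the genes of the array. These are matches of letters in 1 window, and the factors that bind them were not measured.

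Of the other mitotic kinases and checkpoint genes none was called. *Cdc20*, the activator of the anaphase-promoting complex, had medians of 5.25 and 6.35 in the gastrocnemius and quadriceps of LFD mice and 5.3 and 7.3 in HFD mice, with log2 differences of -0.31 (adjusted p 0.196) and -0.39 (adjusted p 0.292). *Birc5* (survivin) and *Cdca8* (borealin) encode subunits of the chromosomal passenger complex that guides Aurora B. Their medians were 3.55 and 3.55 for *Birc5* and 4.25 and 4.8 for *Cdca8* in LFD mice, and 3.6 and 4.85 and 4.2 and 4.95 in HFD mice. The highest quadriceps arrays were those of mouse 153 for *Birc5*, at 9.4, in LFD mice and of mouse 145, at 10.2, in HFD mice, so that the difference in *Birc5* lay in the upper arrays and not in the median of LFD mice. *Ttk*, a checkpoint kinase, was the 1 gene with a positive difference in HFD mice, 0.08 (adjusted p 0.857), and *Plk1*, *Bub1*, *Bub1b* and *Aurkb* lay between -0.16 and -0.0032 there.

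In the cytokinesis pair, *Ect2*, the exchange factor that activates RhoA at the cleavage furrow, was called lower in the gastrocnemius of HFD mice. Its signal intensities were 2.7, 3.6 and 4.8 (lowest, median and highest) in the gastrocnemius and 3.5, 4.8 and 5.8 in the quadriceps, and it was lower in the gastrocnemius of 9 of 10 mice. The groups overlapped, and the log2 difference of -0.43 (standard error 0.10, limma's adjusted p 0.0196) lost its call without mouse 146 (adjusted p 0.0644) or mouse 152 (adjusted p 0.0736). In LFD mice *Ect2* gave 3.3, 3.85 and 5.8 against 3.4, 4.05 and 5.5, with a log2 difference of -0.04 (adjusted p 0.936). *Racgap1*, its activator at the spindle midzone, had medians of 5.05 and 5.3 in LFD mice and 5.2 and 5.45 in HFD mice.

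None of the other spindle genes was called. *Prc1*, which bundles microtubules of the spindle midzone, gave 3.6, 4.1 and 5.0 against 4.6, 5.1 and 5.8 in LFD mice, and its log2 difference of -0.30 (standard error 0.072, limma's adjusted p 0.0262) missed the threshold on the fold, and with the block of the mouse also that on the adjusted p. In HFD mice it was -0.25 (adjusted p 0.15). *Kif11*, the motor that pushes the spindle poles apart, missed the same thresholds in the same way in HFD mice, at 3.7, 4.0 and 4.5 against 4.1, 4.6 and 5.4, with a log2 difference of -0.21 (standard error 0.056, adjusted p 0.0351). *Kif20a*, a motor of cytokinesis, had medians of 3.85 and 4.35 in LFD mice and 3.8 and 4.2 in HFD mice. *Nusap1*, which stabilizes spindle microtubules, had medians of 4.05 and 4.15 in LFD mice and of 4.0 and 6.05 in HFD mice, and reached 8.4 and 12.3 in the quadriceps, with log2 differences of -0.19 and -0.48 (adjusted p 0.651 and 0.174).

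The widest differences in mean belonged to 2 genes that were not called, *Rrm2* and *Mki67*. *Rrm2*, the small subunit of ribonucleotide reductase that is made in S phase, gave 5.4, 6.2 and 6.5 (lowest, median and highest) in the gastrocnemius of LFD mice and 4.6, 5.4 and 51.5 in the quadriceps. In HFD mice it gave 4.8, 6.2 and 7.7 against 4.4, 19.5 and 73.1. The quadriceps arrays fell apart without values between, as those of LFD mice 148, 153, 155 and 160 lay from 24.9 to 51.5 and the other 6 from 4.6 to 5.4. Those of HFD mice 145, 146, 149, 150, 152 and 157 lay from 17.5 to 73.1 and the other 4 from 4.4 to 5.3. The log2 differences were -0.88 (standard error 0.43, limma's adjusted p 0.367) and -1.31 (standard error 0.45, adjusted p 0.139).

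*Mki67*, the proliferation marker Ki-67 that coats mitotic chromosomes, gave 4.6, 6.3 and 14.2 against 5.2, 8.8 and 92.8 in LFD mice, and 4.7, 5.5 and 10.9 against 3.7, 14.85 and 53.4 in HFD mice. Mouse 153 held the value of 92.8, and the quadriceps of HFD mouse 150, where *Rrm2* was at 21.5, had *Mki67* at 5.1. The log2 differences were -0.79 (standard error 0.415, limma's adjusted p 0.418) and -1.28 (standard error 0.44, adjusted p 0.15). Without mouse 153 the difference in LFD mice was -0.40. *Top2a*, the topoisomerase that untangles replicated DNA, had medians of 3.7 and 3.5 in LFD mice and 3.55 and 4.05 in HFD mice, with a highest array of 8.6 in the quadriceps of HFD mouse 146. *Cdca3*, a factor of the entry into mitosis, had medians of 4.25 and 4.55 and of 3.95 and 5.25, and its log2 difference in HFD mice was -0.46 (adjusted p 0.0634). Without mouse 143 or mouse 158 it was called (adjusted p 0.0214 and 0.0419).

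**Figure D2:**
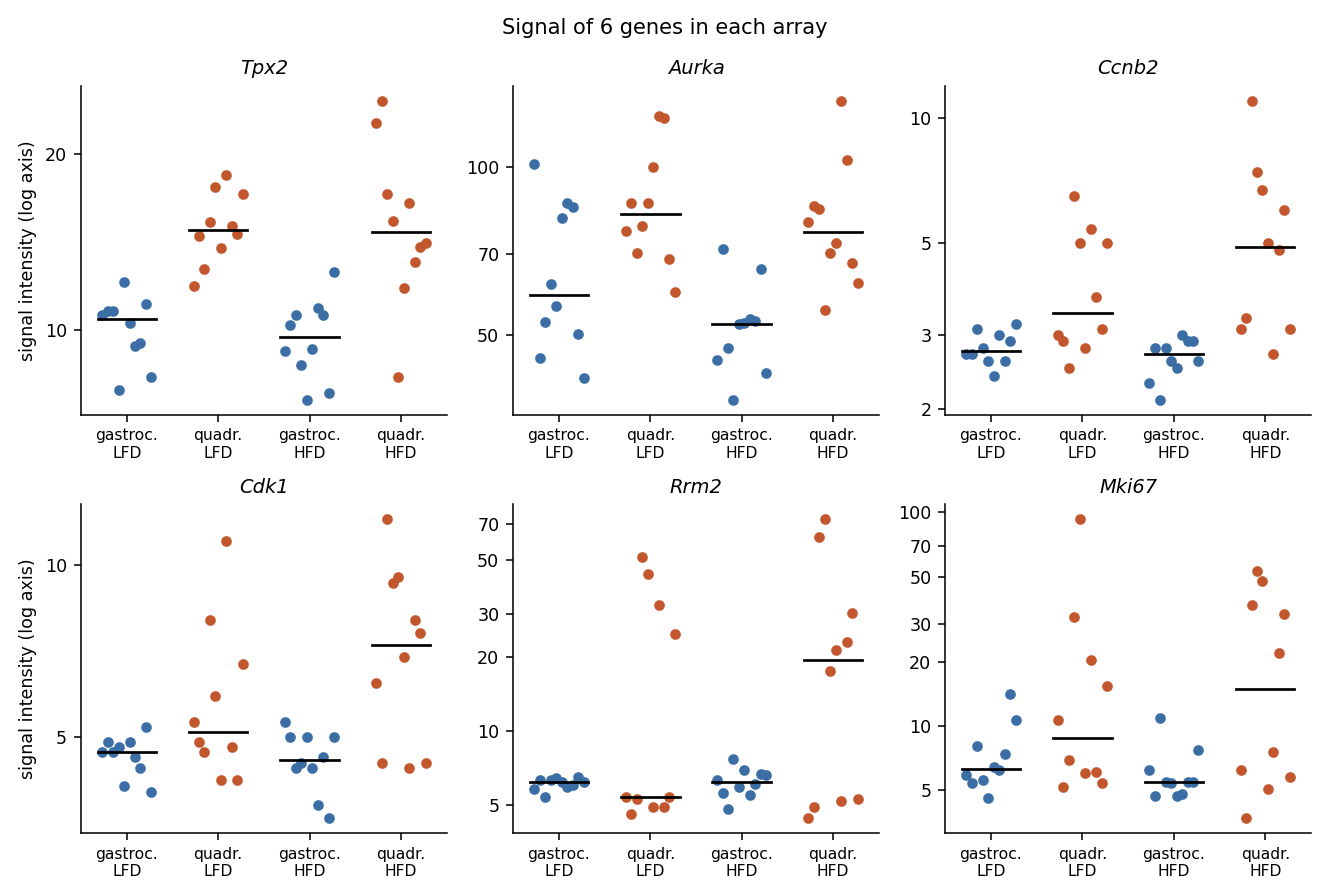
Signal intensity (y axis, log scale) of 6 genes in each of 40 arrays, by group on the x axis, with 1 point per array and a line at the median. The quadriceps points of *Rrm2* split into a low set and a set from 17.5 upward, while those of *Tpx2* and *Aurka* show no such gap.

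Of 9 genes of replication licensing none was called in either diet, and log2 differences ranged from -0.36 to 0.02 in LFD mice and from -0.42 to -0.03 in HFD mice. *Mcm2*, *Mcm4* and *Mcm7* encode subunits of the replicative helicase. *Mcm4* gave 19.6, 36.4 and 42.8 against 23.0, 36.45 and 63.4 in LFD mice and 16.1, 32.55 and 35.2 against 26.5, 41.05 and 64.6 in HFD mice, with log2 differences of -0.11 and -0.42 (adjusted p 0.87 and 0.205). *Mcm7* gave 25.4, 27.7 and 34.3 against 20.9, 30.25 and 46.6, and 19.7, 26.65 and 34.0 against 24.3, 36.6 and 57.5, with differences of -0.16 and -0.42 (adjusted p 0.638 and 0.179). Of both genes the highest array of each diet was from the quadriceps, that of mouse 148 or 160 in LFD mice and that of mouse 146 in HFD mice. Medians of *Mcm2* were 12.45 and 14.0 in LFD mice and 11.95 and 12.45 in HFD mice. *Cdc6* and *Cdt1*, which load the helicase, had medians of 4.15 and 5.15 and of 3.9 and 4.15 in LFD mice, and of 4.5 and 5.0 and of 3.75 and 4.5 in HFD mice.

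The other genes of nucleotide synthesis lacked the split seen in *Rrm2*. *Rrm1*, the large subunit of the same enzyme, gave 93.9, 115.1 and 194.1 against 106.9, 144.45 and 190.0 in LFD mice and 87.6, 121.95 and 172.9 against 105.0, 145.9 and 196.3 in HFD mice. Groups overlapped over most of their range, with log2 differences of -0.27 and -0.20 (limma's adjusted p 0.312 and 0.564). *Tyms*, thymidylate synthase, had medians of 3.8 and 3.75 in LFD mice and of 3.6 and 3.35 in HFD mice.

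Within single mice, the genes stood either clearly higher in the quadriceps or close to even. In LFD mice 148, 153, 155 and 160, between 30 and 32 of 37 genes were lower in the gastrocnemius than in the quadriceps of the same mouse, with a median log2 difference between -0.45 and -0.29. In HFD mice 145, 146, 149, 150, 152 and 157 these values were 30 to 35 genes and -0.62 to -0.29. In the other 10 mice between 14 and 20 genes were lower, with medians between -0.05 and 0.13. Over all probe sets, the share lower in the gastrocnemius of a mouse lay between 42.4% and 52.5% and the median between -0.03 and 0.04.

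Against the 10 gastrocnemius arrays of the same diet, the quadriceps of mouse 145 exceeded all 10 for 30 of 37 genes, where 15.6% of all probe sets did so. The counts were 27 genes in mouse 146 (9.51%) and in mouse 149 (12.8%), 23 in mouse 152 (10.6%), 22 in mouse 157 (8.83%) and 16 in mouse 150 (9.77%). In LFD mice they were 23 in mouse 148 (9.51%), 21 in mouse 153 (9.29%) and mouse 155 (11.4%), and 17 in mouse 160 (10.5%). The quadriceps arrays of the other 10 mice exceeded the gastrocnemius for 1 to 5 genes, beside 7.69% to 11.5% of all probe sets. In LFD mice 141, 142, 147, 154, 156 and 159 the counts were 1 (10.4%), 2 (9.43%), 5 (7.69%), 3 (10%), 5 (9.05%) and 3 (8.48%), and in HFD mice 143, 144, 151 and 158 they were 5 (10.3%), 4 (9.85%), 3 (11.5%) and 4 (9.88%).

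**Figure D3:**
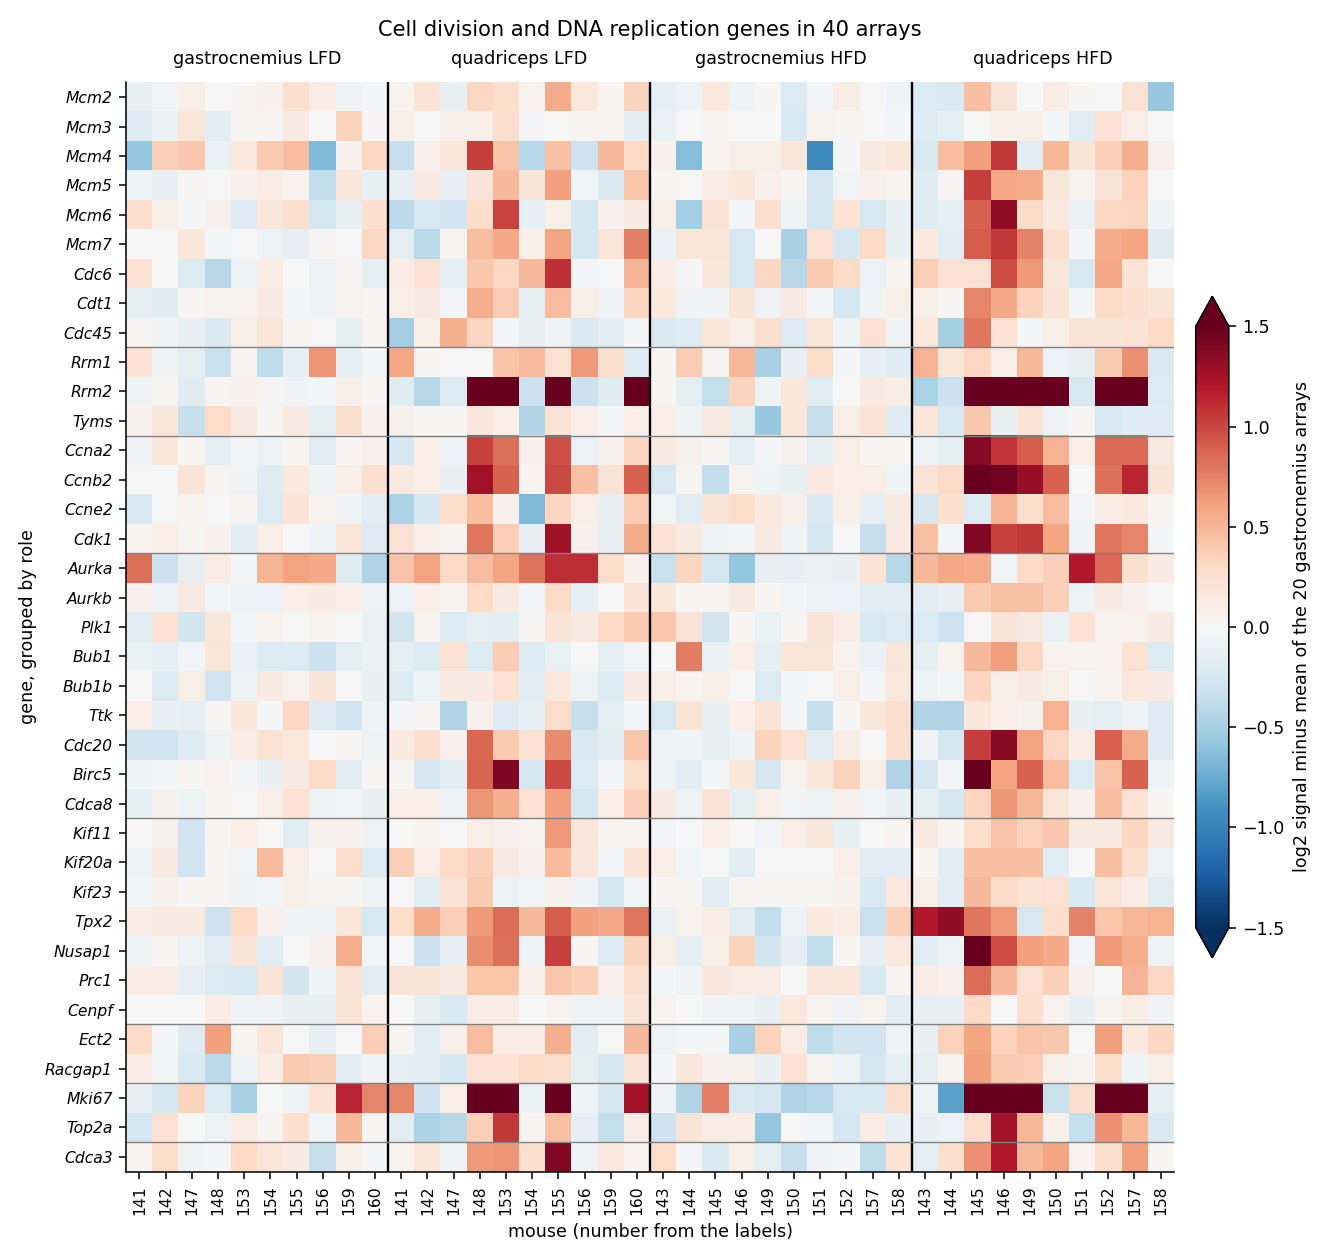
Log2 signal of 37 genes (rows, grouped by role with grey lines) in 40 arrays (columns, by group and mouse), minus the mean of the 20 gastrocnemius arrays of the gene, with blue for lower and red for higher values. Red columns lie in the quadriceps of LFD mice 148, 153, 155 and 160 and of HFD mice 145, 146, 149, 150, 152 and 157, while the row of *Tpx2* is red in most quadriceps arrays.

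The same quadriceps arrays were high in neutrophil genes, while red cell genes did not separate them fully. The summed signal of 11 neutrophil and granule precursor genes, led by *S100a9*, *S100a8* and *Ngp*, lay between 53.6 and 63.9 in the 20 gastrocnemius arrays. It lay between 769.3 and 2641.9 in the quadriceps of LFD mice 148, 153, 155 and 160 and between 1213.6 and 13627.7 in that of HFD mice 145, 146, 149, 150, 152 and 157. In the quadriceps of the other 10 mice it lay between 51.3 and 62.5.

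*S100a8*, a granule protein of neutrophils, was between 342.6 and 4031.3 in those 10 quadriceps arrays and between 5.1 and 11.9 in the other 10. Of all probe sets, 1.38% were called in either direction in LFD mice and 1.87% in HFD mice. Of the 11 genes 0 were called in LFD mice and 2 in HFD mice (*S100a8* and *S100a9*), with median log2 differences of -0.87 and -2.01. Of 10 genes of red cell precursors, led by *Tfrc*, *Car2* and *Alas2*, 0 and 3 were called (*Slc4a1*, *Ermap* and *Hemgn*), with medians of -0.65 and -0.82. *Tfrc*, the transferrin receptor, was the 1 gene of this list with positive differences, 0.15 in LFD mice and 0.66 in HFD mice (limma's adjusted p 0.901 and 0.21). The summed signal of the 10 genes lay between 250.5 and 609.0 in those 10 quadriceps arrays, between 118.1 and 288.1 in the other 10 and between 119.6 and 326.7 in the gastrocnemius, so that the ranges overlapped, with the quadriceps of mouse 150 lowest of the 10. *Alas2*, the heme synthesis enzyme of red cell precursors, was between 22.1 and 73.4 in those 10 arrays and between 9.5 and 17.2 in the other 10, and it reached 25.7 in the gastrocnemius of HFD mouse 152. The part of blood cell precursors in the results on the cell division genes was not tested, and the covariate of neutrophil genes given below is no such test.

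The other lists of cell types, apart from adipocytes, gave at most 1 call each with either diet. Of all probe sets 1.38% were called in either direction in LFD mice and 1.87% in HFD mice. In lists so short, 1 call is a larger share than these. Of the 9 fiber genes 1 was called higher in the gastrocnemius with each diet. The 6 T cell genes, led by *Cd3e*, *Cd4* and *Cd8a*, summed to between 21.5 and 26.6 in all arrays. Of the 8 B cell genes, led by *Ebf1*, *Vpreb1* and *Rag1*, 0 were called with either diet. Differences were positive for 7 in LFD mice and 3 in HFD mice, with medians of 0.03 and -0.01. As a list they were not higher in the quadriceps. Their sums lay between 90.3 and 182.3 in the gastrocnemius and 77.4 and 158.8 in the quadriceps of LFD mice. In HFD mice these ranges were 85.0 to 160.9 and 82.6 to 151.1. *Vpreb1* was at most 6.2 in the gastrocnemius and reached 7.9 and 7.1 in the quadriceps of LFD mice 148 and 160 and 7.4 in that of HFD mouse 145, and *Cd79b* was at most 4.7 in the gastrocnemius and 7.1 and 5.4 in the quadriceps of HFD mice 145 and 146. The 8 genes of satellite cells and myoblasts, led by *Chodl*, *Cdh15* and *Myod1*, summed to between 201.2 and 309.8 in the gastrocnemius and between 210.5 and 316.9 in the quadriceps. Of these 8, 1 was called in LFD mice (*Chodl*, -0.43, limma's adjusted p 0.0293) and 0 in HFD mice. Of 4 adipocyte genes, led by *Adipoq*, 3 were called lower in the gastrocnemius in LFD mice and 1 in HFD mice. All 4 had negative differences with both diets, with medians of -0.78 and -1.1. Of 7 genes of bone and osteoclasts 1 was called lower with each diet. The 7 macrophage genes had negative differences with both diets, with medians of -0.15 and -0.18 and 0 calls, and of 6 fibroblast genes 0 were called in LFD mice and 1 in HFD mice. Of 6 endothelium genes 0 were called with either diet.

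With the mean log2 signal of the neutrophil genes as a covariate of each array, a setting added after the data were seen, the median log2 difference of the 37 genes was -0.0024 in LFD mice and 0.0023 in HFD mice. The neutrophil genes were high only in quadriceps arrays in which the 37 genes were high as well. A median nearer 0 was therefore to be foreseen, and calls kept or lost with this covariate do not test a cause. *Tpx2* kept its call in LFD mice (log2 difference -0.46, limma's adjusted p 0.00286) and in HFD mice (-0.83, adjusted p 0.00812). *Aurka* kept its call in HFD mice (-0.71, adjusted p 0.0187). The calls of *Ccnb2* (-0.25, adjusted p 0.209), *Cdk1* (-0.16, adjusted p 0.642) and *Ect2* (-0.28, adjusted p 0.317) were lost. *Tpx2* was also highest, at 22.6 and 24.7, in the quadriceps of HFD mice 143 and 144, where *S100a8* was at 6.5 and 6.0 and *Rrm2* at 4.4 and 4.9.

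**Figure D4:**
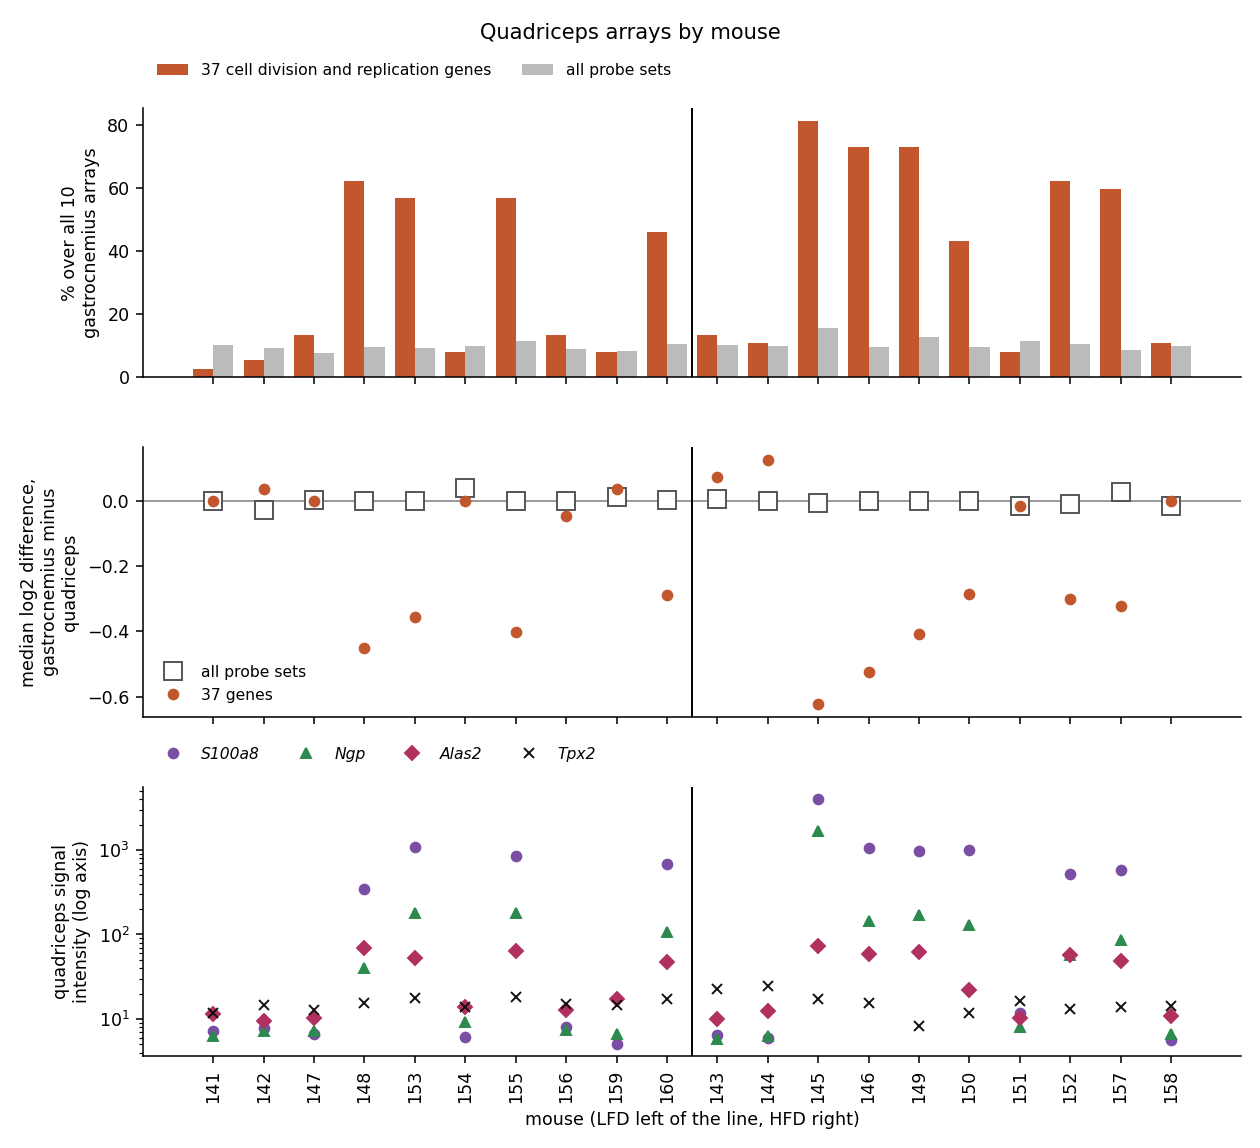
Quadriceps arrays of 20 mice (x axis), with, from top to bottom, the share of 37 genes and of all probe sets above all 10 gastrocnemius arrays of the diet, the median log2 difference between the muscles of the mouse, and the signal intensity (log scale) of *S100a8*, *Ngp*, *Alas2* and *Tpx2*. The 10 mice with a share of 43.2% or more are those with *S100a8* of 342.6 or more. In LFD mice *Tpx2* is also highest in these mice, at 15.3 or more. In HFD mice it is highest in mice 143 and 144, which are not among the 10.

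The spread between mice was wider in the quadriceps for most of the genes. The standard deviation of the log2 signal was larger in the quadriceps for 30 of 37 genes in LFD mice, against 48.2% of all probe sets, and for 34 of 37 in HFD mice, against 53.5%. It was over 2 times as large for 16 of 37 with either diet, against 3.1% and 4.46% of all probe sets. Medians over the genes were 0.28 in the quadriceps and 0.15 in the gastrocnemius of LFD mice and 0.31 and 0.18 in HFD mice, while over all probe sets they were 0.17 and 0.17, and 0.18 and 0.17. *Rrm2* had the widest gap, with standard deviations of 1.50 and 0.080 in LFD mice and 1.54 and 0.19 in HFD mice. *Aurka* spread less in the quadriceps than in the gastrocnemius of LFD mice, at 0.35 against 0.44.

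**Figure D5:**
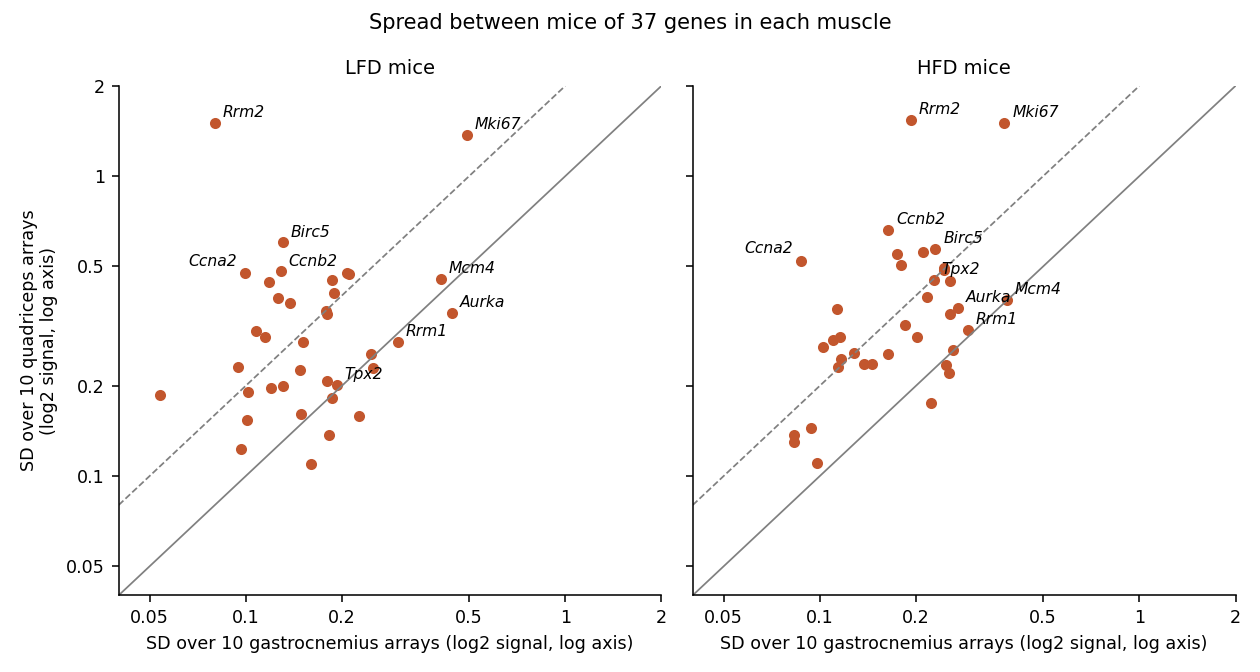
Standard deviation of the log2 signal over 10 gastrocnemius arrays (x axis, log scale) and over 10 quadriceps arrays (y axis, log scale) for each of 37 genes, in LFD mice on the left and HFD mice on the right, with the solid line at equal spread and the dashed line at 2 times. Above the solid line lie 30 genes in LFD mice and 34 in HFD mice, and above the dashed line 16 with either diet.

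Whether the diet altered the muscle difference was tested as an interaction over all 40 arrays. None of the 37 genes passed (0 in limma, beside 0.0% of all probe sets), and at an unadjusted p under 0.05 there was 1 (beside 2.99% of all probe sets), *Ect2*, with an unadjusted p of 0.0133, an adjusted p of 0.9998 and a change of the log2 difference of -0.39 (standard error 0.15) from LFD to HFD. The interaction was negative for 29 of the 37 genes, with a median of -0.08. Of all 16475 probe sets it was negative for 8847, with a median of -0.0092. *Rrm2* and *Mki67* had -0.43 (standard error 0.65) and -0.49 (standard error 0.64).

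The diet itself gave 0 called genes in either muscle in limma, where 0.0243% of all probe sets were called higher and 0.0% lower with the HFD in the quadriceps, and 0.0607% and 0.0121% in the gastrocnemius. In the quadriceps the HFD minus LFD difference was positive for 29 of 37 genes with a median of 0.12. Of all 16475 probe sets it was positive for 8489, with a median of 0.0029. In this muscle 1 gene, *Mcm2*, had an unadjusted p under 0.05, beside 5.41% of all probe sets (-0.18, standard error 0.082, adjusted p 0.882). In the gastrocnemius the median was -0.02, and the 2 genes with an unadjusted p under 0.05, beside 6.19% of all probe sets, were *Bub1*, a kinase of the checkpoint (0.23, standard error 0.096), and *Ect2* (-0.24, standard error 0.11), with adjusted p of 0.651 and 0.71. These 3 comparisons share arrays with the comparisons of the muscles. *Rrm2* in the quadriceps had a diet difference of 0.45 with a standard error of 0.46, and 4 LFD and 6 HFD arrays held its upper values.

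Of 85 other measured genes of the cell cycle, 1 was called between the muscles in LFD mice and 2 in HFD mice, shares near the 1.38% and 1.87% of all probe sets, and their median log2 differences were -0.04 and -0.11. The difference was negative for 59 and 70 of the 85, against 46.5% and 50.5% of all probe sets. Among the 34 mitosis genes 28 and 32 were negative. Among the 25 S phase genes 15 and 20 were, and among the 26 G1 genes 16 and 18. At limma's unadjusted p under 0.05, 5 and 11 mitosis genes were lower in the gastrocnemius, beside 6.26% and 7.0% of all probe sets. Of 25 S phase genes none was called with either diet, and the smallest adjusted p belonged to *Gmnn*, the inhibitor of *Cdt1*, in LFD mice (-0.40, limma's adjusted p 0.122) and to the primase gene *Prim1* in HFD mice (-0.20, adjusted p 0.133). Of 34 mitosis genes 0 were called in LFD mice and 1, *Cenpa*, the histone variant of centromeres, was called lower in the gastrocnemius of HFD mice (-0.47, standard error 0.12, adjusted p 0.0351). *Spc24* of the kinetochore followed with -0.65 (adjusted p 0.0544).

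Of 26 genes of G1 cyclins, kinases and inhibitors, *E2f2*, a transcription factor that drives S phase genes, was called lower in the gastrocnemius of HFD mice (-0.73, standard error 0.15, limma's adjusted p 0.00677). Its quadriceps signal intensity was highest in LFD mice 153, 155 and 148, at 16.8, 15.7 and 12.8, and in HFD mouse 146 at 18.6, while no gastrocnemius array exceeded 6.7. *Cdkn2c*, an inhibitor of the kinases of G1, had positive differences. In LFD mice it was called higher in the gastrocnemius (0.48, standard error 0.12, adjusted p 0.0244), and in HFD mice it missed only the threshold on the fold (0.36, standard error 0.085, adjusted p 0.017). *Rbl2*, which holds cells in quiescence, was lower in the gastrocnemius at -0.34 in LFD mice (adjusted p 0.0329) and -0.26 in HFD mice (adjusted p 0.0503), both under the threshold on the fold.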

How the data were processed

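RNA of 40 whole muscles of 20 mice was measured on Affymetrix arrays, 1 array per muscle and mouse. The authors regrouped the probes so that each Entrez gene had 1 probe set, normalized by quantiles and summarized with GCRMA (version not stated in the sources at hand). They deposited signal intensities on a linear scale. Of 16539 probe sets 64 controls were left out. Symbols came from the Entrez ID of the platform table, updated through RefSeq (GRCm38.p6), for 15752 probe sets, from the platform table alone for 28, and were lacking for 695. Groups and mouse numbers were taken from the sample labels. The muscle was taken from title, source and tissue, which agree for each array, although the protocol text for RNA mentions the quadriceps alone.

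Log2 intensities were fitted with limma 3.58.1 in R 4.3.3, with no filter on the signal and Benjamini-Hochberg adjustment over all 16475 probe sets. The muscles were compared within each diet, and the interaction and the diet effects were contrasts of 4 group means over 40 arrays. The fits were tested on simulated data. The number of arrays limits the precision. The muscles of a mouse come from the same animal and are therefore paired, and the correlation of their deviations from the group means had a median of 0.241 in LFD and -0.037 in HFD mice, against -0.0338 and -0.0104 between mice. As planned, the reported fits have no block, and a fixed or a random effect of the mouse (replicate block) was an alternative. Others were signal filters of 10 and 20, FDR alone, a fold of arithmetic means, a pseudocount of 10, repeated normalization, a trended robust variance, array weights, other arrays in the fit, leaving out each mouse and, added after the data were seen, a covariate of neutrophil genes.

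The genes and lists were chosen with earlier results of these data known. Values are given for genes with a mean signal over 20, called genes and the 3 genes per role with the smallest p between the muscles of each diet. They are also given for up to 4 genes of each other pathway list. The 3 brightest genes are named for the fiber, satellite cell, neutrophil, red cell, B cell and T cell lists. Of the adipocyte list only *Adipoq* is named, and the other marker lists are given without gene names. Genes named beside these were chosen after their values were seen. Promoters were taken for the 6 genes with a window whose larger p of both diets was smallest, and 3 of them are printed. Matches and figures were made in Python 3.11.15 with numpy 2.4.6, pandas 2.3.3 and matplotlib 3.10.9.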

Additional observations from a re-analysis of the deposited data

Results flagged for a closer look

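Dixon's criterion was applied to 104 groups of 10 values. These were the signal intensities of the genes chosen by rule and the mean log2 signal of the 37 genes, in each group of arrays. For normal and independent values, chance meets the criterion in about 1 in 20 groups (5.2 here). Many of the groups share the same arrays, so 5.2 is not an exact level of chance for them. By this criterion 13 groups held an array that lay far from the nearest other. In the quadriceps of LFD mice these were *Mcm4* at 63.4 in mouse 148, *Mki67* at 92.8 and *Top2a* at 7.5 in mouse 153, and *Cdc6* at 9.1, *Kif11* at 6.3 and *Cdca3* at 10.6 in mouse 155, all highest, and *Tyms* at 2.6 in mouse 154, lowest. In the quadriceps of HFD mice they were *Birc5* at 10.2 and *Prc1* at 7.8 in mouse 145, and *Top2a* at 8.6 and *Cdca3* at 9.3 in mouse 146, all highest. In the gastrocnemius they were *Rrm1* at 194.1 in LFD mouse 156 and *Mki67* at 10.9 in HFD mouse 145.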

How the results depend on the processing

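Of 1 called gene in LFD mice, 0 remained called with the signal filter of 20, which leaves 5 of the 37 genes and drops *Tpx2*, or with the pseudocount of 10, and 2 were called at FDR alone. In this order 1.1%, 0.413% and 1.04% of all probe sets tested were called lower. Of 5 in HFD mice, 1 was called with the filter of 20, 2 with the filter of 10 (10 genes left), 1 with the pseudocount and 2 with the neutrophil covariate. The shares of all probe sets tested that were called lower were 1.54%, 1.5%, 0.48% and 0.692%. With the mouse as a fixed block, which pairs the muscles, 2 genes were called in LFD mice and 5 in HFD mice, with a random block 1 and 5. Of all probe sets 0.832% and 0.917% were called lower with the fixed block, and 0.741% and 0.868% with the random block. Leaving out a mouse gave 1 to 1 in LFD mice and 3 (without 146 or 152) to 7 (without 143) in HFD mice. The share of all probe sets called lower then lay between 0.437% and 0.734% in LFD mice and between 0.595% and 0.959% in HFD mice. The spread was larger in the quadriceps for 3 and 5 of 5 genes over 20 and for 8 and 10 of 10 genes over 10 (LFD and HFD mice). Of all 6479 probe sets over 20 it was larger for 3080 and 3457, and of all 8049 over 10 for 3866 and 4341. No alternative run gave an interaction or diet call, and the diets, in different mice, allow no fixed block of the mouse.

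The covariate turned the HFD median to 0.002283. It also turned uncalled genes, in LFD mice *Mcm4* (0.06784), *Mcm7* (0.07791), *Rrm2* (0.09154), *Ccne2* (0.1239), *Birc5* (0.1249), *Ect2* (0.09809), *Racgap1* (0.1069) and *Mki67* (0.01348), and in HFD mice *Mcm2* (0.1966), *Rrm2* (0.04998), *Tyms* (0.06646), *Cdc20* (0.04608), *Birc5* (0.08926), *Cdca8* (0.002283) and *Racgap1* (0.01106). The pseudocount turned *Top2a* in LFD mice (-0.002705) and array weights *Tyms* in HFD mice (0.02357). Leaving out a mouse turned the sign of uncalled genes near 0, with ranges in LFD mice of -0.2079 to 0.00973 for *Mcm4*, -0.01825 to 0.0742 for *Tyms*, -0.0937 to 0.018 for *Ccne2*, -0.06736 to 0.01837 for *Ect2*, -0.06716 to 0.05632 for *Racgap1* and -0.06058 to 0.1404 for *Top2a*, and of -0.08519 to 0.04548 for *Tyms* in HFD mice. The causes were not tested.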
